A study of Homo sapiens with 6 samples.

Results

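Cholesterol synthesis, uptake and sterol sensing were described through 31 named genes: 18 enzymes that build cholesterol from acetyl-CoA, 4 genes of the sterol sensor, 5 of uptake and transport, and 4 of efflux, storage and the LXR receptors. Members were found by gene symbol in the deposited table, which held 12793 rows, and 29 of the 31 were analysed. The RNA of ABCA1 and ABCG1, which encode exporters of cholesterol, was not analysed here. ABCA1 enters only the promoter search below. The cells were HCT15, a colorectal cancer line of human origin, with 3 libraries of a control guide (genotype WT) and 3 labelled RBM15 knockout, made with CRISPR/Cas9. RBM15 binds RNA and belongs to the machinery that writes the m6A mark. No label says whether the knockout is 1 clone or a pool, or whether libraries of 1 group are separate cultures. The p-values here therefore weigh the difference between groups only against the spread of these libraries, which may be technical.

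Cells make cholesterol in the endoplasmic reticulum by way of mevalonate, farnesyl diphosphate, squalene and lanosterol. The transcription factor encoded by SREBF2 turns these genes on: its precursor is carried to the Golgi by SCAP when sterols are low, and INSIG proteins hold SCAP back when sterols are high. LXR receptors answer a surplus of sterols by turning on export and the degradation of lipoprotein receptors. Values below are FPKM, which scale fragments for transcript length and for how many were mapped, given in the order of libraries 1, 2 and 3 of each group. Gene positions are the gene models of GENCODE 29 on GRCh38. A gene "rose" or "fell" where the libraries labelled knockout stood above or below the controls at an adjusted p of at most 0.05 in limma, with differences on the log2(FPKM + 1) scale.

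RBM15 itself was higher in the libraries labelled knockout, with 5.97, 5.89 and 5.51 FPKM in the controls and 17.3, 18.5 and 18.0 FPKM in the libraries labelled knockout (log2 difference 1.48, SE 0.049, adjusted p = 3.88e-06; exact 2-sided permutation p = 0.1, the smallest that 3 against 3 libraries allow). Directions below therefore rest on the labels alone. The columns summed to between 402288 and 415057 FPKM over the listed rows, and the depth of each library is unknown. Of 10 colorectal epithelial markers 7 were in the table, and they summed to between 3358 and 3443 FPKM in the controls and between 3134 and 3271 FPKM in the libraries labelled knockout. CD68 and CD14, the 2 of 7 leukocyte markers with a row, summed to 6.26 to 6.77 FPKM in the controls and 9.88 to 12.2 FPKM in the libraries labelled knockout, and their part in the results was not tested. Of 8 fibroblast markers 1 had a row (COL1A1, at most 1.41 FPKM in any library), and of 4 endothelial markers 0. In bulk RNA, fewer cells that express a gene and less RNA per cell cannot be told apart.

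Most promoters of the synthesis enzymes held a short letter pattern that the choice of genes did not use. RefSeq promoter windows on GRCh38.p14, from 250 bases before to 50 after each start, were held for 27 of the 31 genes, without ACAT2, FDFT1, SQLE and ABCG1. The box CCAAT, bound by NF-Y, a factor that works beside SREBP at sterol-regulated promoters, was searched on both strands, as were the motifs that follow. It occurred in 13 of 15 enzyme genes with a window (86.7%), in 19 of all 27 members with a window (70.4%) and in 3993 of 9137 tested genes with a window (43.7%). The box GGGCGG, bound by Sp1, occurred in 26 of the 27 members and in 79.2% of tested genes with a window. The sterol regulatory element searched as TCACNCCAC was in 1 of the 27 members, SREBF2 (3.7%), and in 1.4% of tested genes with a window. It was in 0 of the 15 enzyme genes. Only this exact string in these windows was searched, so elements with other letters or farther away would be missed. A gene with several starts was counted once, if any of its windows held the letters, and Sp1 matches may overlap one another.

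The box nearest upstream of a start is shown for each of the 13 enzyme genes, because most of these promoters hold it, PMVK and CYP51A1 being the exceptions with a window. Each line reads 5′ to 3′ on the strand that carries CCAAT, which is in capitals, with 10 bases on either side:
HMGCS1 (chr5:43313498-43313522, plus strand): gctcccacagCCAATcgcggccggt
MVK (chr12:109573738-109573762, minus strand): ttcaggccagCCAATcagagcgcgc
MVD (chr16:88663162-88663186, minus strand): ctcgcacgggCCAATcctgtggtag
IDI1 (chr10:1048959-1048983, plus strand): ggccgcgcagCCAATcgctcgcgcc
FDPS (chr1:155308805-155308829, minus strand): actacaactcCCAATgtgcccgcgg
LSS (chr21:46228910-46228934, plus strand): gcccacgcaaCCAATcagagcgccg
TM7SF2 (chr11:65111788-65111812, minus strand): agcacaccagCCAATcggcgctcgg
MSMO1 (chr4:165327625-165327649, plus strand): ctctcgcaggCCAATaacgacagga
NSDHL (chrX:152830969-152830993, plus strand): ccgagctgggCCAATcctcttggtg
HSD17B7 (chr1:162790640-162790664, minus strand): gctgatccctCCAATctcagtccgc
EBP (chrX:48521768-48521792, minus strand): acggagcgagCCAATggtgaagcga
SC5D (chr11:121292705-121292729, minus strand): gagcggccagCCAATcagcgaccgg
DHCR7 (chr11:71448427-71448451, plus strand): cgattgcctgCCAATcggaggcgga
Only the box itself was searched, and a match is a description of letters, not a bound site. By RNA difference, the box was in 14 of 19 members with a window that fell (73.7%) and in 5 of 7 in the table that did not (71.4%).

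**Figure D1:**
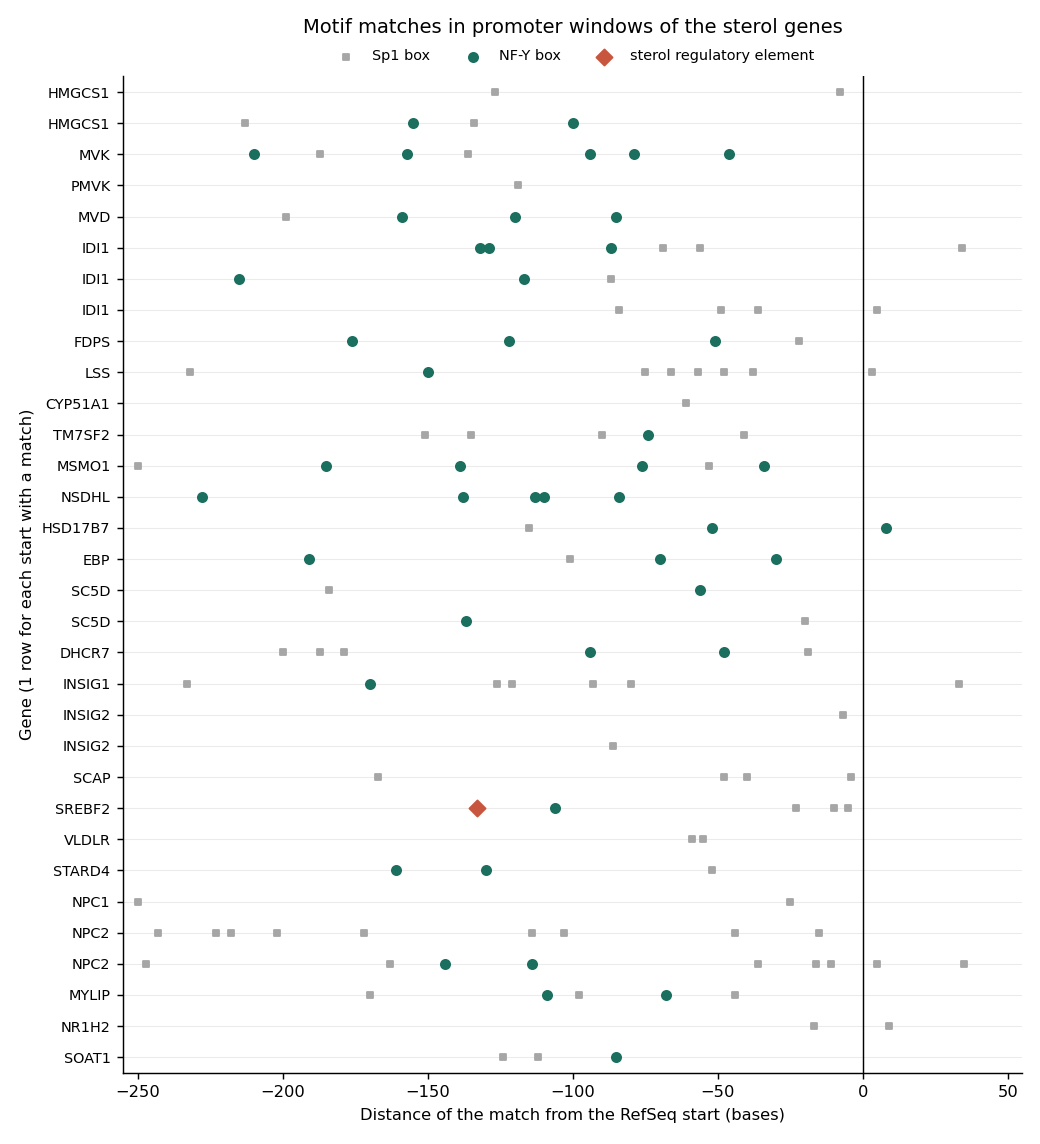
Matches to 3 motifs in RefSeq promoter windows of the sterol genes with tested RNA, with 1 row for each start that has a match. The x axis gives the distance in bases from the start at 0 to the first base of the match. Green circles (NF-Y box) lie before the start in 13 enzyme genes, with 1 more after the start in HSD17B7, and the 1 diamond (sterol regulatory element) is in SREBF2.

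Upstream stretches of the member with the largest fall in each role and of the 1 gene that rose show what these windows hold. The letters of the 3 motifs, on either strand, are in capitals, and bases inside any GENCODE 29 exon were left out beyond a site of 30 bases:
INSIG1 (chr7:155297628-155297775, plus strand): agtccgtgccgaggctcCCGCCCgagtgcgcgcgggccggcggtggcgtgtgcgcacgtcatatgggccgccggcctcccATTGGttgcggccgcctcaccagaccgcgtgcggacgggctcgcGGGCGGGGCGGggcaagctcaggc
VLDLR (chr9:2621627-2621786, plus strand): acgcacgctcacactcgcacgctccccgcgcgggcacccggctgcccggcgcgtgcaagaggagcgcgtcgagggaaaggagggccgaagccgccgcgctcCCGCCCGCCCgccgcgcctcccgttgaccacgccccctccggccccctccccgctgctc
SOAT1 (chr1:179293554-179293713, plus strand): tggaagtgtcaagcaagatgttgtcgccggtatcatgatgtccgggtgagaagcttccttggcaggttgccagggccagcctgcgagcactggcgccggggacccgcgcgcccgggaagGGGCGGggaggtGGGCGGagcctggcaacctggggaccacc
MVK (chr12:109573637-109573666, plus strand): ATTGGtttaacggaaggagcgGGGCGGgaa
TM7SF2 (chr11:65111721-65111750, plus strand): GGGCGGgcctttccggGGGCGGggttttga
NR1H2 (chr19:50376427-50376456, plus strand): caagtttcacgctCCGCCCctcttccggac
SREBF2 (chr22:41832972-41833001, plus strand): TCACCCCACgcaccgcttcgctcgcccatt
The INSIG1 stretch holds an inverted NF-Y box at -170 and Sp1 boxes at -233, -126 and -121, those at -126 and -121 overlapping. The whole VLDLR window holds Sp1 boxes and no NF-Y box. The SOAT1 stretch holds 2 Sp1 boxes, and its NF-Y box runs over the end shown. SREBF2 is shown for its sterol regulatory element, the only match among the members, and was added after the search.

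Of the 29 genes tested, 22 fell, 1 rose and 6 passed neither way in the libraries labelled knockout. Over all 11451 tested genes 54.5% were called, 29.2% as lower and 25.3% as higher, so the share of members that fell (75.9%) is to be read against 29.2%. The median log2 difference of the members was -0.37, beside -0.02 over all tested genes, and 27 of 29 members lay below 0 (NPC2 among them, though at 0.003 on the TPM scale and 0.007 with median centring). Groups did not overlap with the knockout lower for 24 members, where 33.4% of all tested genes were like that, and with the knockout higher for 2 (29.6% of all). In either direction that is 26 members, beside 63% of all tested genes. Most falls were moderate: 16 of the 22 lay between 0.3 and 0.8 below control on the log2 scale, and VLDLR was the 1 member called at a size of at least 1. Removing a trend with GC content and transcript length from the log2 values (the GC and length correction) moved the median to -0.25 and left 18 falls and 1 rise. Under that correction 2763 of 11160 tested genes fell and 3438 rose, with a median of 0.022. Median GC was 48.6% in the members and 48.4% in all tested genes, and median length 3010 and 3623 bases.

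**Figure D2:**
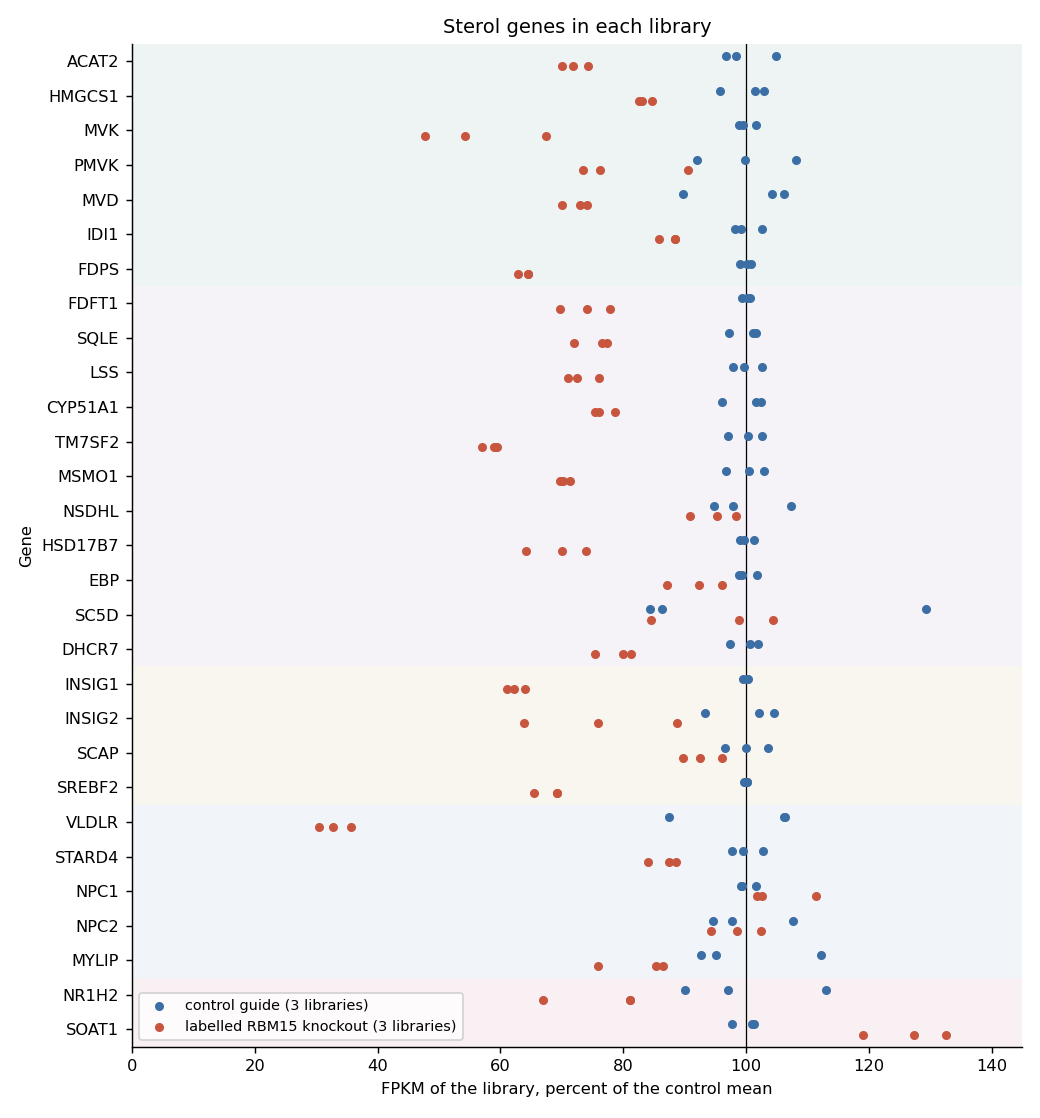
FPKM of each sterol gene in each library as a percent of the control mean (x axis), with control libraries in blue and libraries labelled knockout in red. Shading marks the 5 role groups in the order of the text. The red points of VLDLR lie lowest, and those of SOAT1 and NPC1 lie to the right of all their control points.

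All 7 enzymes of the mevalonate arm, from acetyl-CoA to farnesyl diphosphate, fell (29.2% of all tested genes did) in the libraries labelled knockout. Their median log2 difference was -0.45 (-0.249 after the GC and length correction, with 6 of 7 called), and their summed level went from 870.8 ± 5.73 to 632.96 ± 3.24 FPKM. MVK (ENSG00000110921, chr12:109573255-109598117, plus strand), the kinase that phosphorylates mevalonate, read 22.2, 22.8 and 22.3 FPKM in the controls and 12.2, 15.1 and 10.7 FPKM in the libraries labelled knockout. The knockout values spread over a wider range than the controls but stayed below them (log2 difference -0.79, SE 0.108, adjusted p = 0.000942). FDPS (ENSG00000160752, chr1:155308748-155320666, plus strand), which makes farnesyl diphosphate, the branch point to sterols and prenylated proteins, read 358, 351 and 355.4 FPKM in the controls and 223, 229 and 229 FPKM in the libraries labelled knockout. The FDPS groups lay far apart with little spread in either (log2 difference -0.64, SE 0.024, adjusted p = 6.29e-06), and the FPKM level fell by 36.0%. GENCODE 29 names 8 pseudogenes of FDPS, and no source used here says how reads were divided with them.

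ACAT2, the thiolase that starts the pathway, read 147, 159.9 and 149.8 FPKM in the controls and 113, 109 and 107 FPKM in the libraries labelled knockout (log2 difference -0.47, SE 0.040, adjusted p = 0.000134). MVD, the decarboxylase that makes isopentenyl diphosphate, read 45.1, 52.3 and 53.3 FPKM in the controls and 36.7, 37.2 and 35.2 FPKM in the libraries labelled knockout (log2 difference -0.45, SE 0.066, adjusted p = 0.00123), and its difference was -0.22 after the GC and length correction. Neither gene's groups overlapped. Exons of ACAT2 overlap those of TCP1 and SOD2 on the other strand, and both of these rose (0.45 and 0.57), opposite to ACAT2. Without stated use of strand, reads in such overlaps cannot be told apart, which also holds for NPC1 with RMC1 (604 bases; RMC1 rose by 0.18). TM7SF2 overlaps VPS51 on the same strand by 16 bases, and VPS51 fell by 0.31.

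The smallest falls of the arm were in HMGCS1, PMVK and IDI1. HMGCS1, which makes HMG-CoA, was at 163, 152 and 161 FPKM in the controls and 131, 132 and 134 FPKM in the libraries labelled knockout (log2 difference -0.26, SE 0.034, adjusted p = 0.000816). IDI1, the isopentenyl diphosphate isomerase, was at 118, 116 and 122 FPKM in the controls and 105, 102 and 105 FPKM in the libraries labelled knockout (log2 difference -0.19, SE 0.030, adjusted p = 0.00173). In both, every knockout value was under every control value, although the mean of HMGCS1 fell by only 16.6% and that of IDI1 fell by 12.5%. PMVK, the kinase after MVK, was at 12.7, 14.97 and 13.8 FPKM in the controls and 10.2, 12.5 and 10.5 FPKM in the libraries labelled knockout (log2 difference -0.30, SE 0.088, adjusted p = 0.0248). The highest knockout value of PMVK lay just under the lowest control. PMVK did not pass when control 2 (-0.245), control 3 (-0.299), knockout 1 (-0.245) or knockout 3 (-0.269) was left out, nor after the GC and length correction (-0.108).

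Of 11 enzymes in the squalene and sterol arm 9 fell (81.8%, beside 29.2% of all tested genes) and 0 rose (median -0.40). Their summed level went from 1214 ± 9.27 to 921.9 ± 21.9 FPKM. TM7SF2 (ENSG00000149809, chr11:65111845-65116384, plus strand), a sterol reductase, moved most, with 71.3, 73.7 and 75.4 FPKM in the controls and 43.7, 41.9 and 43.3 FPKM in the libraries labelled knockout (log2 difference -0.76, SE 0.034, adjusted p = 1.19e-05). All 3 knockout values lay within a narrow band well under the controls. HSD17B7, the ketosteroid reductase of sterol demethylation, read 27.3, 27.7 and 27.1 FPKM in the controls and 17.5, 20.2 and 19.2 FPKM in the libraries labelled knockout (log2 difference -0.51, SE 0.054, adjusted p = 0.000314). MSMO1, the methylsterol monooxygenase, read 174, 163 and 169.6 FPKM in the controls and 120.4, 118 and 118 FPKM in the libraries labelled knockout (log2 difference -0.50, SE 0.031, adjusted p = 4.07e-05). These 2 enzymes act with NSDHL in the same removal of methyl groups, and NSDHL, the dehydrogenase between them, did not pass.

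NSDHL read 37.5, 34.2 and 33.1 FPKM in the controls and 31.8, 33.3 and 34.4 FPKM in the libraries labelled knockout, so its groups overlapped, with a 95% interval of the log2 difference of -0.20 to 0.06 (adjusted p = 0.298). That interval lies above those of MSMO1 (-0.58 to -0.43) and HSD17B7 (-0.64 to -0.38), though the difference between the genes was not tested. SC5D, a sterol desaturase, read 17.0, 25.5 and 16.6 FPKM in the controls and 20.6, 19.5 and 16.7 FPKM in the libraries labelled knockout. Control library 2 stood apart and the groups overlapped, leaving an interval of -0.42 to 0.35 (adjusted p = 0.865). Without control library 2 the difference was 0.155, and without knockout library 3 it was 0.048, each with no call.

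Earlier steps of the arm fell by similar amounts. FDFT1, the squalene synthase and the most abundant of the 18 enzymes, read 425, 423 and 419 FPKM in the controls and 329, 295 and 313 FPKM in the libraries labelled knockout (log2 difference -0.44, SE 0.041, adjusted p = 0.000182). SQLE, the squalene epoxidase, read 81.6, 78.0 and 81.1 FPKM in the controls and 61.4, 57.7 and 62.1 FPKM in the libraries labelled knockout (log2 difference -0.40, SE 0.038, adjusted p = 0.000196). LSS, which closes the rings of lanosterol, read 36.2, 35.6 and 37.3 FPKM in the controls and 26.4, 25.8 and 27.7 FPKM in the libraries labelled knockout (log2 difference -0.44, SE 0.040, adjusted p = 0.000162). In FPKM, FDFT1 fell by 26.1%, SQLE fell by 24.7% and LSS fell by 26.8%, with no overlap between groups in any of these consecutive enzymes. CYP51A1, the lanosterol demethylase, read 126, 125 and 118 FPKM in the controls and 93.5, 92.6 and 96.7 FPKM in the libraries labelled knockout (log2 difference -0.38, SE 0.035, adjusted p = 0.000181), and its groups did not overlap. GENCODE 29 names 3 pseudogenes of CYP51A1 and 2 of HSD17B7. Exons of CYP51A1 also overlap those of 3 other genes, by up to 2844 of its 3584 exon bases. Among them are AC000120.2 and AC000120.3, protein-coding and on the same strand, and how reads were divided with them is not given.

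Of the last steps, DHCR7 and EBP fell and SC5D, above, did not pass. DHCR7, the reductase that yields cholesterol, read 111, 106 and 110.03 FPKM in the controls and 87.4, 88.8 and 82.3 FPKM in the libraries labelled knockout (log2 difference -0.34, SE 0.038, adjusted p = 0.000385), and its difference was -0.206 after the GC and length correction. EBP, the sterol isomerase, read 118, 121 and 118 FPKM in the controls and 114, 109.9 and 104 FPKM in the libraries labelled knockout (log2 difference -0.12, SE 0.040, adjusted p = 0.0364). The EBP groups did not overlap, but the gap between them was small beside the spread of the knockout values. EBP did not pass when any 1 of controls 1 to 3 or of knockouts 2 and 3 was left out (-0.13 to -0.085). Nor did it pass on the TPM scale (-0.098), with median centring (-0.095), without a variance trend (-0.122) or after the GC and length correction (-0.005).

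**Figure D3:**
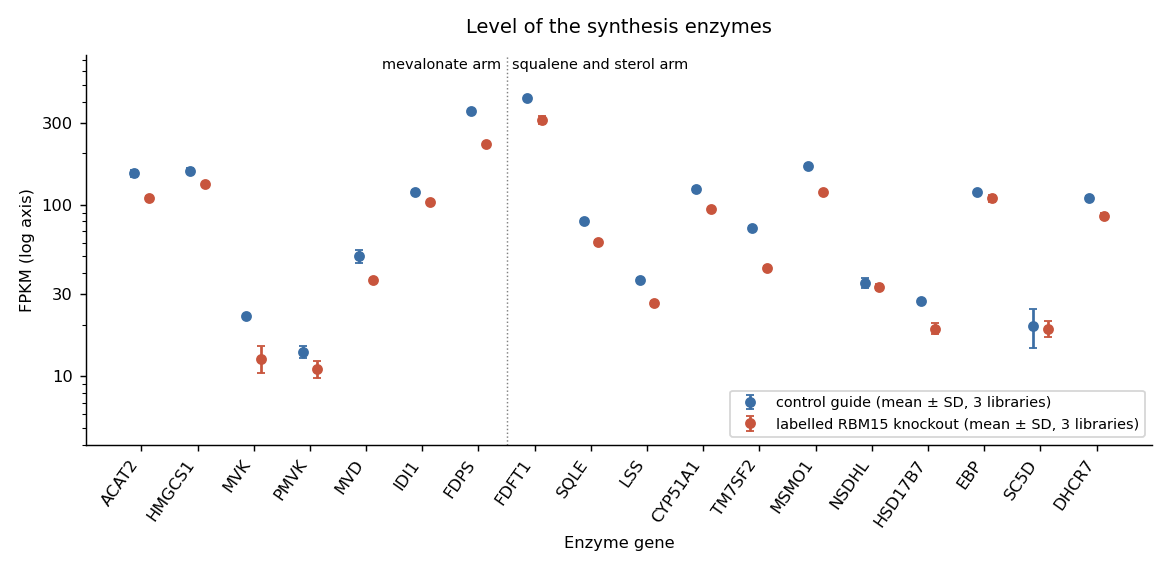
Mean FPKM ± SD (log axis) of the 18 synthesis enzymes in pathway order, with 3 control libraries in blue and 3 libraries labelled knockout in red. Levels range from PMVK and MVK in the libraries labelled knockout at the bottom to FDPS and FDFT1 at the top, and the red point is lower in every column, with overlapping values in NSDHL and SC5D.

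Enzyme levels spanned a wide range within the pathway. FPKM is scaled by length, but the annotation is not given and some reads may be shared with pseudogenes or overlapping genes. The order of genes by level is therefore approximate. In the controls FDFT1 (422 FPKM) and FDPS (354.8 FPKM) stood highest, followed by MSMO1, HMGCS1 and ACAT2, whose spreads partly met. PMVK (13.8 FPKM), SC5D and MVK (22.4 FPKM) stood lowest. The libraries labelled knockout had the same 2 enzymes on top, while MVK came down to 12.7 ± 2.26 FPKM, next to PMVK at 11.1 ± 1.27 FPKM and no longer apart from it beyond the spread. Summed over all 18 enzymes, the level was 2090.4, 2082 and 2083 FPKM in the controls and 1577, 1539.6 and 1548 FPKM in the libraries labelled knockout, a sum that fell by 25.4%.

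Of the 4 genes of the sterol sensor 3 fell (75.0%, beside 29.2% of all tested genes), with a median of -0.46. SREBF2 (ENSG00000198911, chr22:41833079-41907308, plus strand), the factor that drives sterol synthesis genes and its own, read 65.1, 65.2 and 64.9 FPKM in the controls and 45.0, 45.0 and 42.6 FPKM in the libraries labelled knockout. The controls were nearly identical, and all 3 knockout values lay about equally far below them (log2 difference -0.55, SE 0.033, adjusted p = 3.94e-05). INSIG1 (ENSG00000186480, chr7:155297776-155310235, plus strand), the SREBP-induced brake on SCAP, read 171, 170.3 and 171 FPKM in the controls and 106, 104 and 109 FPKM in the libraries labelled knockout (log2 difference -0.67, SE 0.028, adjusted p = 8.09e-06). INSIG2, its more weakly expressed paralog, read 14.6, 13.3 and 14.9 FPKM in the controls and 10.8, 12.6 and 9.10 FPKM in the libraries labelled knockout, with no overlap but a wide knockout spread (log2 difference -0.37, SE 0.108, adjusted p = 0.0228). INSIG2 did not pass when control 1 (-0.357), control 3 (-0.342) or knockout 1 (-0.375) was left out, nor after the GC and length correction (-0.32).

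SCAP, the escort of SREBP, read 22.5, 24.1 and 23.3 FPKM in the controls and 21.6, 22.4 and 20.9 FPKM in the libraries labelled knockout. The values of the groups came close without overlapping and the gene did not pass, with a 95% interval of -0.21 to 0.00 (adjusted p = 0.0839). That interval holds no fall as large as that of SREBF2 or INSIG1. The INSIG1 to INSIG2 ratio within a library was 11.8, 12.8 and 11.5 in the controls and 9.86, 8.26 and 12.03 in the libraries labelled knockout, and the groups overlapped (exact 2-sided permutation p = 0.3, adjusted over 4 ratios p = 0.4). SREBF1, the paralog that favours fatty acid synthesis, read 25.9, 26.1 and 26.6 FPKM in the controls and 13.9, 14.2 and 14.02 FPKM in the libraries labelled knockout (log2 difference -0.86, SE 0.035, adjusted p = 7.7e-06). Both paralogs fell, and the SREBF2 to SREBF1 ratio went from 2.48 ± 0.041 to 3.15 ± 0.107 without overlap (exact p = 0.1, the smallest possible; adjusted p = 0.2). These ratios, and those of the pairs below, were chosen after the values were seen.

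**Figure D4:**
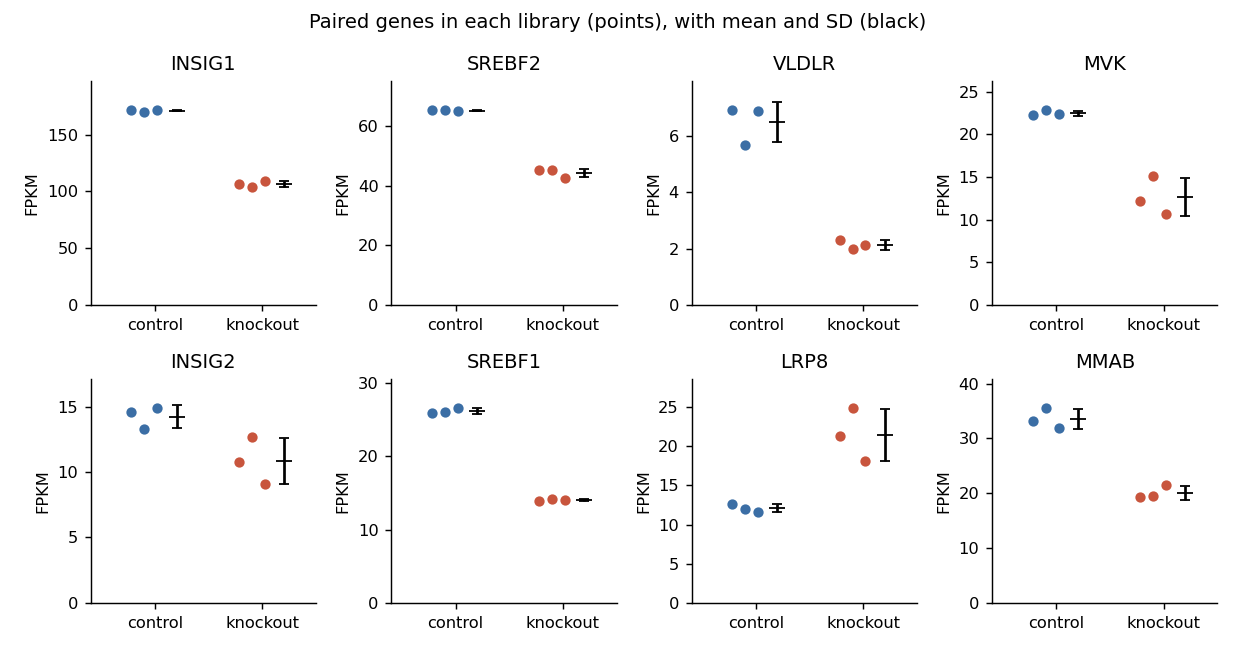
FPKM in each library for 4 pairs of genes, each pair in 1 column: INSIG1 and INSIG2, SREBF2 and SREBF1, VLDLR and LRP8, MVK and MMAB. Blue points are control libraries, red points are libraries labelled knockout, and black marks give the mean and SD of 3. In 7 of the 8 panels the red points lie below the blue ones, and in the LRP8 panel they lie above.

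Of the 5 uptake and transport genes 2 fell, VLDLR and STARD4, and 0 rose. Over all tested genes 29.2% fell and 54.5% were called in either direction, so this small group was called less often than all tested genes. The median of the 5 was -0.20, but -0.069 under quantile normalization, and -0.021 over the 3 genes left by a filter at 5 FPKM. VLDLR (ENSG00000147852, chr9:2621834-2660053, plus strand), a receptor for lipoproteins that carry apolipoprotein E, read 6.91, 5.68 and 6.90 FPKM in the controls and 2.31, 1.98 and 2.12 FPKM in the libraries labelled knockout. Every knockout value was under 40% of the control mean (log2 difference -1.25, SE 0.087, adjusted p = 5.83e-05), the largest fall of the 29 genes, though from a low level. LRP8, a receptor of the same family that is not among the 31 genes, read 12.6, 12.05 and 11.6 FPKM in the controls and 21.3, 24.9 and 18.2 FPKM in the libraries labelled knockout (log2 difference 0.77, SE 0.103, adjusted p = 0.000895). The pair thus moved in opposite directions: the LRP8 to VLDLR ratio was 1.83, 2.12 and 1.69 in the controls and 9.2, 12.6 and 8.55 in the libraries labelled knockout (exact p = 0.1, the smallest possible; adjusted p = 0.2). MYLIP, the ubiquitin ligase that marks lipoprotein receptors for degradation, read 2.99, 3.07 and 3.62 FPKM in the controls and 2.75, 2.79 and 2.45 FPKM in the libraries labelled knockout, which did not overlap but did not pass (log2 difference -0.20, adjusted p = 0.0741).

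STARD4, which carries sterol through the cytosol and is a target of SREBP, read 45.4, 43.2 and 44.0 FPKM in the controls and 37.1, 39.1 and 38.6 FPKM in the libraries labelled knockout, without overlap (log2 difference -0.20, SE 0.036, adjusted p = 0.00313). NPC1 and NPC2, which together move cholesterol out of lysosomes, did not pass. NPC1 read 14.6, 14.6 and 14.9 FPKM in the controls and 15.1, 14.98 and 16.4 FPKM in the libraries labelled knockout, slightly higher in all 3 libraries labelled knockout than in any control. Its 95% interval was -0.04 to 0.18 (adjusted p = 0.249). NPC2 read 128, 132 and 146 FPKM in the controls and 139, 128 and 133 FPKM in the libraries labelled knockout, with overlapping groups and an interval of -0.15 to 0.11 (adjusted p = 0.763).

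SOAT1 (ENSG00000057252, chr1:179293714-179358680, plus strand), which esterifies cholesterol for storage in droplets, was the 1 member that rose. Of the 4 named genes of efflux, storage and LXR, it and NR1H2 were tested. SOAT1 read 10.4, 10.5 and 10.1 FPKM in the controls and 13.2, 12.3 and 13.7 FPKM in the libraries labelled knockout, so each knockout value was above each control (log2 difference 0.31, SE 0.050, adjusted p = 0.00199), and the mean was 26.3% higher. NR1H2 (ENSG00000131408, chr19:50329653-50382982, plus strand), which encodes the LXR beta receptor, read 22.01, 17.6 and 18.9 FPKM in the controls and 15.8, 15.8 and 13.1 FPKM in the libraries labelled knockout. It fell without overlap (log2 difference -0.37, SE 0.101, adjusted p = 0.0191), but did not pass after the GC and length correction (-0.182).

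**Figure D5:**
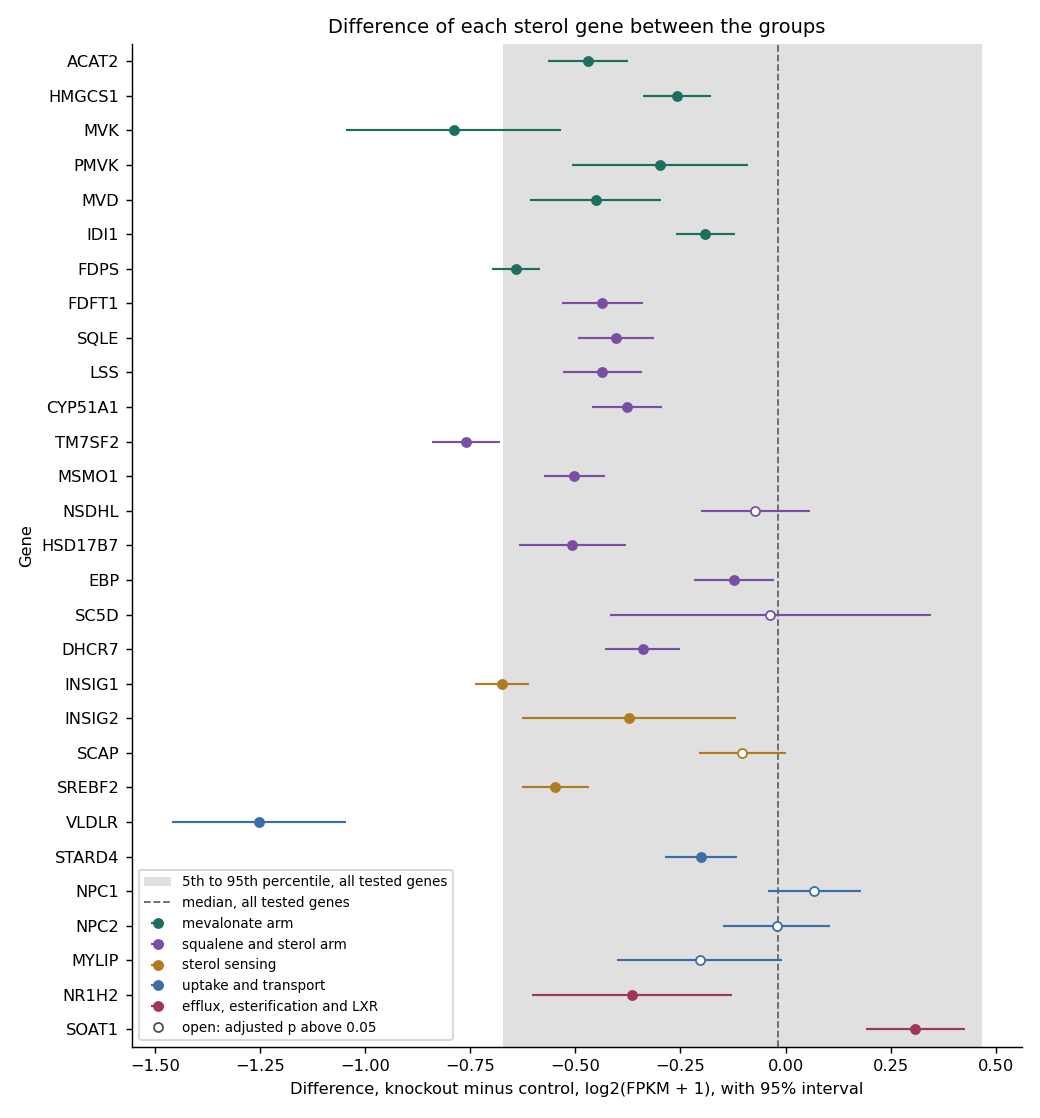
Log2 difference of each sterol gene, knockout minus control, with its 95% interval, coloured by role. Open points did not pass an adjusted p of 0.05, and the grey band spans the 5th to 95th percentile of all tested genes (-0.67 to 0.47) around their median (dashed). Most points lie left of the dashed line and inside the band, while MVK, TM7SF2, INSIG1 and VLDLR lie at or beyond its left edge.

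Other genes of the pathway, outside the 31, were described by 4 lists, whose counts are to be read against all tested genes, of which 29.2% fell and 25.3% rose (median -0.02). In the list of SREBP processing and of the degradation of sterol enzymes 4 of 12 fell (33.3%), near the 29.2% of all tested genes, 4 rose and 4 passed neither way, with a median of -0.04. SREBF1, described above, had the largest fall. SPRING1, which licenses the protease that releases SREBP, went from 7.14 ± 0.151 to 9.92 ± 0.425 FPKM (log2 difference 0.42, SE 0.049, adjusted p = 0.000459). UBE2G2, a ubiquitin-conjugating enzyme of ER degradation, rose by 0.39, and VCP, the ATPase that extracts proteins from the ER, by 0.39. The 2 site proteases that cut SREBP both fell: MBTPS1 by 0.23 and MBTPS2 by 0.22.

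Isoprenoid branch genes, which use farnesyl diphosphate for prenylation, dolichol and ubiquinone, fell in 6 and rose in 5 of 15 (73.3% called, beside 54.5% of all tested genes; median -0.05). GGPS1, which makes geranylgeranyl diphosphate, went from 26.5 ± 1.28 to 18.4 ± 1.26 FPKM (log2 difference -0.51, SE 0.060, adjusted p = 0.000523). RABGGTA, a subunit of the Rab prenyltransferase, fell by 0.45. PDSS1, which makes the side chain of ubiquinone, rose by 0.32 and ICMT, which methylates prenylated proteins, by 0.31. Between 7 and 9 of these 15 were called when any 1 library was left out.

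Of 6 tested genes that assist or feed electrons to the sterol enzymes, 2 fell and 0 rose. The share that fell (33.3%) is near the 29.2% of all tested genes. ERG28, a scaffold of the sterol enzymes in the ER, read 60.5, 59.6 and 61.9 FPKM in the controls and 42.4, 42.5 and 40.1 FPKM in the libraries labelled knockout (log2 difference -0.53, SE 0.036, adjusted p = 5.23e-05). POR, which supplies electrons to CYP51A1 and SQLE, fell by 0.28. After the GC and length correction 3 of the 6 were lower and 1 higher. In the list of transport, storage and oxysterol genes 8 of 18 tested (27 named) fell, or 44.4% beside 29.2% of all tested genes, and 5 rose (median -0.05). GRAMD1A, which moves sterol from the plasma membrane to the ER, went from 4.85 ± 0.133 to 2.28 ± 0.442 FPKM (log2 difference -0.84, SE 0.105, adjusted p = 0.000619). TSPO, a mitochondrial protein that binds cholesterol, fell by 0.45, and NR1H3, the LXR alpha gene, by 0.41.

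Members that start head to head with another protein-coding gene were compared with that neighbour, by the rule of starts within 1000 bases on opposite strands in GENCODE 29. MVK is paired with MMAB, which encodes an enzyme of vitamin B12 metabolism. MMAB read 33.1, 35.5 and 31.9 FPKM in the controls and 19.3, 19.4 and 21.6 FPKM in the libraries labelled knockout, and it fell as MVK did (log2 difference -0.71, SE 0.059, adjusted p = 0.000119). The MVK to MMAB ratio was 0.671 ± 0.029 in the controls and 0.636 ± 0.141 in the libraries labelled knockout, with overlap (exact p = 0.7, adjusted p = 0.7). Exons of the pair overlap by 306 bases.

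The other 4 neighbours moved less. NADSYN1, beside DHCR7, fell by 0.17 and ISCA2, paired with NPC2, by 0.15. The pairing of DHCR7 uses its GENCODE start (chr11:71452868), which lies outside the RefSeq promoter window searched above (chr11:71448344-71448643). Exons of NPC2 and ISCA2 overlap on opposite strands, by at most 103 bases. WDR37, beside IDI1, had an interval of -0.16 to 0.17 (adjusted p = 0.964). CETN2, beside NSDHL, had one of -0.17 to 0.07 (adjusted p = 0.418), and neither passed.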

How the data were processed

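RNA of 6 HCT15 libraries, 3 per group, was sequenced as paired-end reads of 150 bp from TRIzol extracts and VAHTS Universal V6 libraries, per the labels' protocols. The submitters' processing notes name HISAT2 2.2.1, StringTie 2.0.4 and hg38. The authors deposited FPKM for 12793 rows, per the file headers. The annotation, use of strand, RNA selection and row filter were not given in the sources used here. Ratios of values below 0.5 FPKM showed no steps of whole reads (at most 0.93% in any window of 0.1%), so depth is unknown, counting intervals cannot be given and the only precision is that from replicate libraries.

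Groups came from the titles. The 11451 genes that averaged 1 FPKM or more, all 29 members among them, were tested on log2(FPKM + 1), which understates changes of low genes, with limma 3.58.1 (R 4.3.3), 2 groups, no covariates and a variance trend. P-values are 2-sided and Benjamini-Hochberg adjusted over all tested genes. The fit was tested on simulated data. Alternatives were no filter, a filter at 5 FPKM, a pseudocount of 0.1, 3 other scalings, no variance trend, a replicate block, removal of a GC and length trend (splines on the longest GENCODE transcript) and leaving out each library. Named genes were all members and, of each other list, the called gene with the largest rise, that with the largest fall and up to 2 more by size. MBTPS1, MBTPS2, the overlapping and head-to-head neighbours and the ratios were chosen after values were seen. Members and lists were chosen with earlier results of these data known. Promoters are RefSeq windows on GRCh38.p14; coordinates are GENCODE 29 on GRCh38. Scripts used Python 3.11.15 with scipy 1.17.1, numpy 2.4.6, pandas 2.3.3 and matplotlib 3.10.9.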

Additional observations from a re-analysis of the deposited data

How the results depend on the processing

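Of the 23 members called, 19 kept their direction and call in every alternative run (15 each; VLDLR, below the filter at 5 FPKM, in 14), and 0 of the 23 reversed. The exceptions were PMVK, EBP, INSIG2 and NR1H2, given with their values above. Called members numbered between 19 and 23 over the alternatives, with 19 when the GC and length trend was removed, 20 to 22 when 1 library was left out and 22 with a replicate block. Libraries that share a number did not deviate together (correlations of -0.035, -0.037 and 0, and -0.02 to 0.054 for other pairs). The block lost only the call of EBP among the members, and it moved all calls from 6245 to 5782. A filter at 5 FPKM left 1 called gene of 3 in uptake and transport, since it removed VLDLR and MYLIP. With the GC and length trend removed, 1 gene of efflux, esterification and LXR and 4 of the electron donor list were called, and the cause was not tested. Called genes of the isoprenoid list numbered 7 to 9 when 1 library was left out. Signs turned only in members that were not called: with the trend removed NSDHL was at 0.013, SC5D at 0.022, SCAP at 0.038 and NPC2 at 0.047. NPC2 was also at 0.003 on the TPM scale and 0.007 with median centring, and it ranged from -0.059 to 0.032 without 1 library, while SC5D ranged from -0.139 to 0.155. RBM15 ranged from 1.45 to 1.51 without 1 library. The split of all calls, 2896 higher and 3349 lower, turned to 3149 and 3103 on the TPM scale, 3239 and 3044 with median centring, 3367 and 2894 under quantile normalization and 3438 and 2763 with the trend removed. Over all alternatives the list medians ranged from -0.049 to -0.012 for SREBP processing, -0.114 to 0.026 for the isoprenoid branch, -0.231 to -0.058 for electron donors and -0.082 to -0.021 for transport. Depth is unknown, so small differences such as that of EBP rest on 3 libraries per group.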
